A study of Mus musculus with 150 samples.

Results

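DNA copy number was examined at 8 genes of the TGF-beta pathway in single tumour cells of the mouse lung: the ligand genes Tgfb1 and Tgfb2, the receptor genes Tgfbr1 and Tgfbr2, and Smad2, Smad3, Smad4 and Smad7. The members were chosen by name, and their values are those of the bins whose gene column lists them. They fell in 9 of the 5331 bins of the genome and were 8 of the 30010 gene names that the bins list. The study sequenced the genomes of 150 single cells, 50 from each of 3 lung tumours called T1, T7 and T9, all from 1 mouse (animal M3, label KP_30w_ND). The labels place the mouse 30 weeks after tumour induction. KP is the labels' name for the cross. The strains listed include Trp53flox/flox, Rosa26LSL-tdTomato and Rosa26LSL-Luciferase on a C57BL/6 x Sv129 mixed background, and all 3 tumours share that background. Tumours were started with AdSPC-Cre, an adenovirus in which the surfactant protein C promoter drives Cre, or with AdCMV-FlpO; the labels do not say which virus this mouse received, nor its age. Large tumours were micro-dissected one by one before cells were sorted. The labels call the source AT2 cells (alveolar type II cells of the lung), and DNA copy number holds no marker that could check that name.

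TGF-beta ligands are secreted in a latent form and, once released, bind the type II receptor, which recruits and phosphorylates the type I receptor. The type I receptor phosphorylates SMAD2 and SMAD3, which join SMAD4 and enter the nucleus to control transcription, and SMAD7 feeds back to block the receptors. In epithelial tumours the pathway is known both for restraining growth early and for promoting invasion and mesenchymal change late, and its receptor and SMAD genes are sometimes deleted.

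Tgfbr1, Tgfbr2 and Smad3 were lost in nearly all T1 cells when read over long stretches and in 70.2 to 83.0% by their own bins, and their promoters are shown here as the starts of the genes that the main result turns on. Each is the 300 bases from 250 before to 50 after the RefSeq start on GRCm38.p6, read 5′ to 3′ on the gene's strand, with the GC box (GGGCGG, or CCGCCC for the other strand) in capitals. Tgfbr1 has its start at chr4:47352972-47353271 on the plus strand, Tgfbr2 at chr9:116175314-116175613 on the minus strand and Smad3 at chr9:63757945-63758244 on the minus strand.
Tgfbr1: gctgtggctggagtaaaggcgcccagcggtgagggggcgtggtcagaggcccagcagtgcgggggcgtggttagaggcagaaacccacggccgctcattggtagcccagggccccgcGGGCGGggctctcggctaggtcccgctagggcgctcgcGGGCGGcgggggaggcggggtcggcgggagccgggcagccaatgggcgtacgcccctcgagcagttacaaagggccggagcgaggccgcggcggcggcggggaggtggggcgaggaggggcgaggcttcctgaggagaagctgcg
Tgfbr2: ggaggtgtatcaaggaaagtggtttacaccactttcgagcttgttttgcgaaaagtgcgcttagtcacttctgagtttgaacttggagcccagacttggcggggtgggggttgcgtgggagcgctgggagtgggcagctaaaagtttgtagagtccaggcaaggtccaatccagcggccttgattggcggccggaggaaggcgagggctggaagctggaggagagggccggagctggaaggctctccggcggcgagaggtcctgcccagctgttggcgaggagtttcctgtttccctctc
Smad3: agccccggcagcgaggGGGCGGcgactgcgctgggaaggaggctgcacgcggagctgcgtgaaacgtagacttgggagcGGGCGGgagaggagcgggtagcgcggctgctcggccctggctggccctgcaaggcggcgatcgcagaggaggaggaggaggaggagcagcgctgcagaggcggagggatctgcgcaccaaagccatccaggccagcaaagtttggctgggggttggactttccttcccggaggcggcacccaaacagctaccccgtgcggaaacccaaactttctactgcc
The GC content was 74.7% for Tgfbr1, 59.0% for Tgfbr2 and 67.7% for Smad3, against a median of 52.7% over all 32851 RefSeq promoters of that length. The GC box occurred 2 times in the Tgfbr1 promoter shown and 2 times in that of Smad3, but not in that of Tgfbr2, and 35.7% of all promoters hold it. The Tgfbr1 promoter shown is that at the outer start of the gene. RefSeq holds another for it at chr4:47385966-47386265, with a GC content of 52.0% and no GC box. The copy number data do not resolve these starts: each bin spans about 499.6 kb (median over the bins kept), far more than the promoter and the gene together.

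The unit of measurement was the log2 ratio of each bin, centred on the median over the autosomes of the same cell, so that 0 is the typical copy number of that cell. The ploidy of the cells is not known, and in a cell with 2 copies of most autosomes a loss of 1 copy would lie at -1 and a gain of 1 copy at 0.58. A cell was called lost at a level of -0.42 or lower and gained at 0.32 or higher (1.5 and 2.5 copies where 2 is typical). The filters left 47 T1 cells, 48 T7 cells and all 50 T9 cells. The median cell was covered by 97.7 Mb of sequenced bases in T1, 69.3 Mb for T7 and 56.7 Mb for T9, and cells ranged from 20.5 to 170.1 Mb. Despite its depth T1 was the noisiest, with a median bin-to-bin noise per cell of 0.19 against 0.15 in T7 and 0.13 in T9. Each tumour is 1 sample, and its cells are not replicates of a condition, so no test between tumours was possible. A share is given with its exact 95% interval (Clopper-Pearson). Where no cell was called, the limit given is 3 cells of the total, which is below the upper bound of that interval (7.4% for 0 of 48). Both cover counting error only.

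The genes took up between 2.86% and 22.1% of their bins, so a level belongs to the neighbourhood and not to the gene alone. Tgfb1 (chr7:25687002-25705077) lies whole within the bin chr7:25660668-26159500, which lists 17 genes, Axl among them. Tgfb2 (chr1:186622787-186709697) lies in chr1:186503171-187003043, near the end of the chromosome. Tgfbr1 (chr4:47353222-47414926) crosses a bin border, with 47.48 kb in chr4:46904251-47400704 and 14.22 kb in chr4:47400705-47897158, and the mean of both bins was used. Tgfbr2 (chr9:116087695-116175363) lies in chr9:115893928-116392626 with Gadl1, and Smad3 (chr9:63646766-63757994) in chr9:63294974-63798308 with Map2k5. The 3 other SMAD genes share the distal part of chromosome 18: Smad4 (chr18:73634790-73703791) in chr18:73481209-73981075, Smad7 (chr18:75367365-75395935) in chr18:74980809-75480675 and Smad2 (chr18:76241090-76311748) in chr18:75980543-76480409. Members of a chromosome were therefore not independent of each other.

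In T1, 4 of the 8 genes (Tgfb1, Tgfbr1, Tgfbr2 and Smad3) were lost in at least 20% of cells by their own bins, and 23.9% of all autosomal bins of T1 were. Smad2 and Smad7 were gained in at least 20% of T1 cells, where 30.8% of autosomal bins were. T7 had none of the 8 genes past that share in either direction, against 2.37% of bins lost and 13.9% gained. In T9, Tgfbr1, Tgfbr2 and Smad3 were lost in at least 20% of cells, against 7.76% of bins, and none was gained, against 7.57% of bins. For Tgfb1, Tgfbr1 in T9, and the chromosome 18 genes, the call depended on whether the bin or its longer segment was read.

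**Figure D1:**
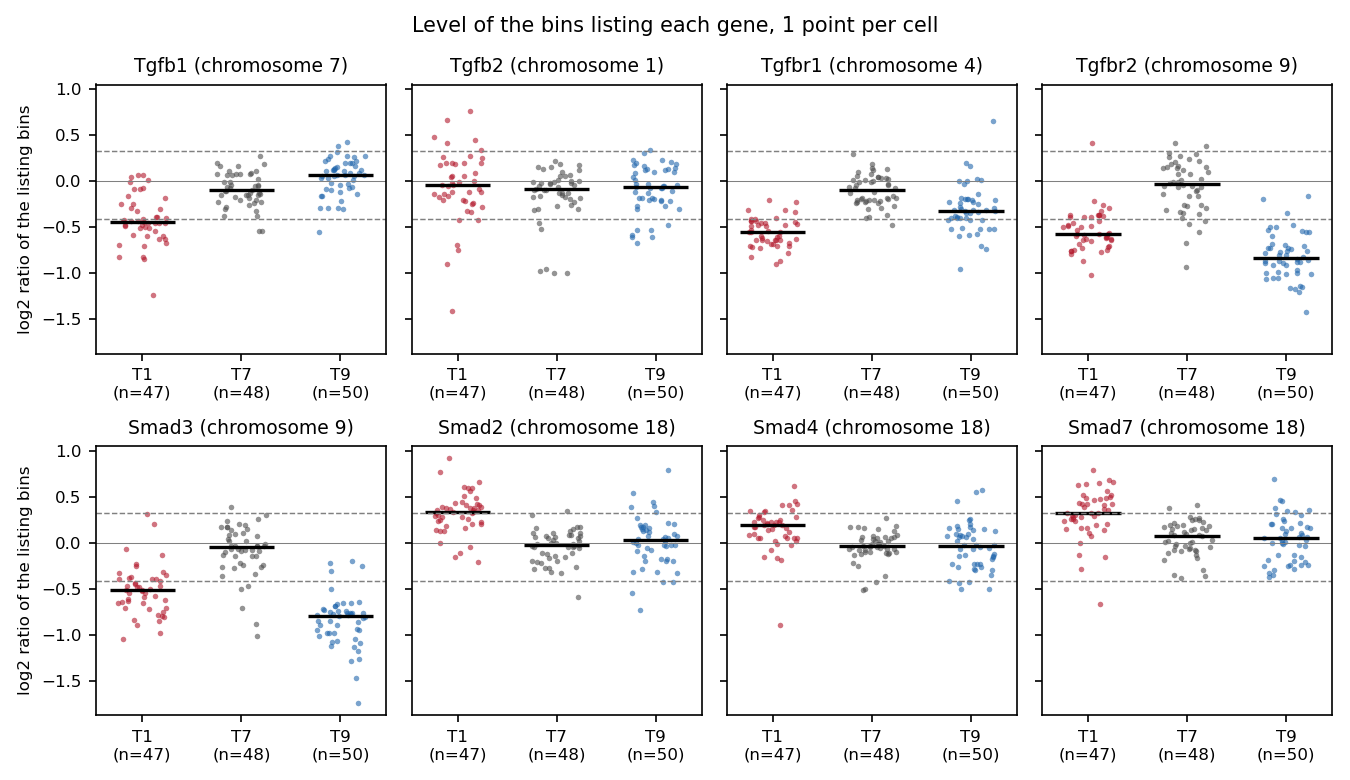
Level (centred log2 ratio) of the bins listing each gene, 1 point per cell, in T1 (47 cells), T7 (48) and T9 (50); black bars are medians and dashed lines the thresholds for loss (-0.42) and gain (0.32). Tgfbr1, Tgfbr2 and Smad3 lie below 0 in nearly all T1 cells, Tgfbr2 and Smad3 in all T9 cells, and the T7 cells centre near 0 for each of the 8 genes.

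Tgfb1, which encodes the most widely expressed TGF-beta ligand, had a median level of -0.45 in T1 (SD over cells 0.27, lowest -1.24, highest 0.07). In T7 it was -0.10 (SD 0.18, -0.54 to 0.27) and in T9 0.07 (SD 0.20, -0.55 to 0.42). The T1 cells lay lower than most cells of the other tumours, with overlap. Loss was called for 28 of 47 T1 cells (59.6%, 44.3 to 73.6), for 2 of 48 from T7 and for 1 of 50 from T9. The bins beside it did not share this level: the T1 bin lay 0.24 below its 10 neighbours, and 5.43% of autosomal bins lay farther below theirs. Read from the segment, a run of bins with one fitted level and a median length of 121 Mb here, Tgfb1 was at -0.19 in T1 and lost in 6 of 47 cells (12.8%, 4.83 to 25.7). From the deposited depth without the authors' reference, the T1 level of the bin was 0.01 in place of -0.45. A separate feature lay about 3 to 5 Mb before the gene, where 6 neighbouring bins had median levels of 0.29 to 0.34 in T7 and 0.40 to 0.48 in T9, while Tgfb1 itself lay outside it. In T1 the same bins lay between -0.23 and -0.16.

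Tgfb2 encodes a ligand that depends on a co-receptor for strong receptor binding. The T1 median was -0.05 (SD 0.39, -1.41 to 0.76), the T7 median -0.09 (SD 0.30, -1.0 to 0.21) and the T9 median -0.07 (SD 0.26, -0.67 to 0.33). The medians of the 3 tumours differed by less than the spread of cells within any of them, and single cells departed in both directions. In T1 it was lost in 6 cells and gained in 6 of 47 (12.8% each, 4.83 to 25.7). In T7 it was lost in 6 of 48 cells and gained in none (limit 6.25%), and in T9 it was lost in 7 and gained in 1 of 50. By segment the losses numbered 4 of 47, 4 of 48 and 5 of 50 cells, and the gains 3, 0 and 1. The deepest was a T1 cell with a segment level of -1.29 and a bin level of -1.41. By their median, the 17 bins after the gene, which end the chromosome, were lost in 4 of 47, 4 of 48 and 5 of 50 cells. Over all autosomal bins, the 90th percentile of the share lost by segment was 89.4% of cells in T1, 6.25% in T7 and 10% in T9. In all 3 tumours, then, Tgfb2 was lost in a minority of cells while the median cell kept the level typical of its autosomes.

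Tgfbr1, the type I receptor kinase that phosphorylates SMAD2 and SMAD3, had a median level of -0.56 in T1 (SD 0.16, -0.90 to -0.21). In T7 it was -0.10 (SD 0.17, -0.48 to 0.29) and in T9 -0.32 (SD 0.26, -0.96 to 0.65). Every T1 cell lay below 0, T9 lay between the other tumours, and the 3 ranges overlapped. The T1 median corresponds to 0.68 of the typical copy number of the cell, and the T9 median to 0.80. Its bins called 39 of 47 T1 cells lost (83.0%, 69.2 to 92.3), 1 of 48 from T7 and 14 of 50 from T9 (28%, 16.2 to 42.5). The segment called 45 of 47 T1 cells lost (95.7%, 85.5 to 99.5), 0 of 48 from T7 (limit 6.25%) and 4 of 50 from T9 (8%, 2.22 to 19.2). In T1 the segment spanned the whole of chromosome 4 in 37 of 47 cells. The T9 segment median of -0.22 (SD 0.19) lay between 0 and the threshold for loss, against -0.67 (SD 0.09) in T1, and 1 T9 cell was gained at 0.58.

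Tgfbr2, the type II receptor that binds the ligand, had median levels of -0.57 (T1, SD 0.22, -1.02 to 0.42), -0.03 (T7, SD 0.29, -0.93 to 0.42) and -0.83 (T9, SD 0.25, -1.42 to -0.16). All 50 T9 cells and 46 of 47 T1 cells lay below 0. Loss by the bin was called for 34 of the 47 T1 cells (72.3%, 57.4 to 84.4), 5 of the 48 T7 cells (10.4%, 3.47 to 22.7) and 47 of the 50 T9 cells (94%, 83.5 to 98.7). By segment the counts were 45 of 47, 3 of 48 and 47 of 50. The raw depth behind these levels was small: the bin held a median of 13.1 kb of sequenced bases per T1 cell, 10.3 kb per T7 cell and 5.28 kb per T9 cell.

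Smad3 encodes the receptor-activated SMAD that binds DNA directly. The medians were -0.52 (T1, SD 0.27, -1.05 to 0.31), -0.05 (T7, SD 0.28, -1.02 to 0.38) and -0.80 (T9, SD 0.29, -1.74 to -0.20). The pattern was that of Tgfbr2, on the same chromosome 52.4 Mb away, with all T9 cells below 0 and T7 centred near 0. Its bin was lost in 33 of the 47 T1 cells (70.2%, 55.1 to 82.7), 5 of the 48 T7 cells (10.4%) and 46 of the 50 T9 cells (92%, 80.8 to 97.8). Its segment was lost in 46 (97.9%, 88.7 to 99.9), 3 and 47 of them. From depth without a reference, the bins of Tgfbr1, Tgfbr2 and Smad3 were called lost in 53.2%, 40.4% and 55.3% of T1 cells, and with a stricter threshold of -0.7 in 19.1%, 23.4% and 25.5%.

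**Figure D2:**
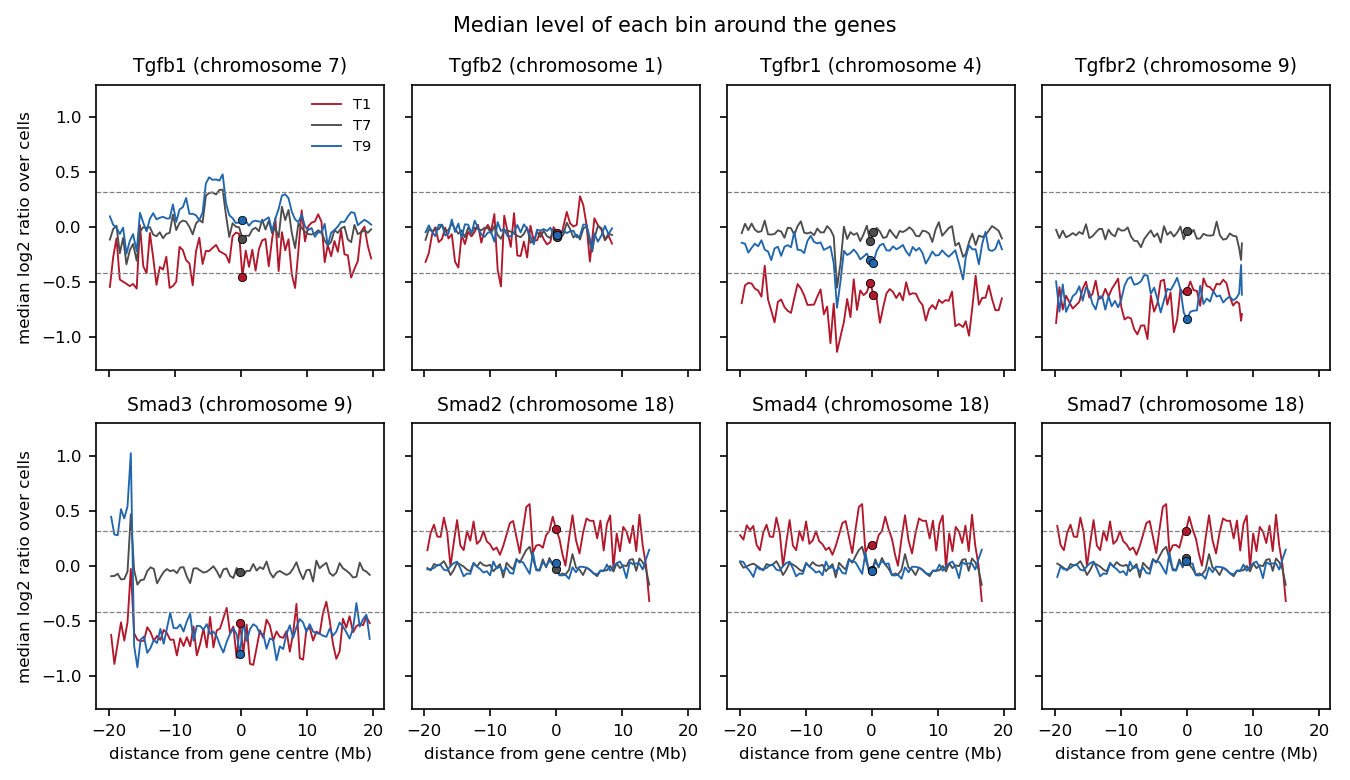
Median level over cells (log2 ratio) of each bin within 20 Mb of each gene in T1, T7 and T9, against the distance from the gene's centre in Mb; dots mark the bins that list the gene and dashed lines the thresholds. Around Tgfbr1, Tgfbr2 and Smad3 the lowered T1 level runs through nearly the whole window, and the T9 level at Smad3 turns from gain to loss about 16 Mb before the gene.

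The losses at Tgfbr2 and Smad3 were parts of long stretches with different edges in T1 and T9. In T9 the median segment holding either gene was 77.2 Mb long, and in T1 it was 95.7 Mb. The 10 bins before Smad3 had a median of -0.64 in T9 and -0.59 in T1, and the 10 bins after it -0.61 and -0.68. The 18 bins after Tgfbr2, which end the chromosome, lay at -0.65 in T9, -0.58 in T1 and -0.07 in T7. The T9 level turned within 1 bin: the bin 17.2 Mb before the centre of Smad3 had a median of 0.54 and the bin 16.2 Mb before it -0.72. The bin between them was at 1.03 in T9, and it also stood above its neighbours in T7 (0.47) and T1 (-0.03). The 86 bins from chr9:3491634-46257048, on the far side of that edge, were gained in 45 of the 47 T9 cells that had lost Smad3. They were not gained in any of the 3 T9 cells without that loss, where they lay between -0.14 and 0.28. Of the 46 T1 cells with loss at Smad3, none was gained there and 12 were lost, so the same 2 genes were lost in T1 and T9 beside opposite levels of the first part of the chromosome.

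Within the lost stretch of T9, the bins of both genes lay deeper than the bins around them, a detail singled out after its values were seen. The Tgfbr2 bin was 0.20 below its 10 neighbours, and the Smad3 bin 0.21 below. Over all autosomal bins of T9 the SD of this departure was 0.07, and 1.71% and 1.62% of bins departed farther in either direction. The Tgfbr2 bin lay in a run of low bins: those on either side were both at -0.77, against -0.83 for its own. The bins on either side of the Smad3 bin were at -0.62 and -0.50, against -0.80 for its own. From chr9:48247519-124495110, a stretch of 154 bins within the loss with a T9 median of -0.60, 1 bin was lower than that of Tgfbr2 and 2 were lower than that of Smad3. That stretch starts after the first lost bins. A bin it leaves out, 15.7 Mb before the centre of Smad3, was lower than both at -0.92. The gene's own bin was below its neighbours in 39 of 50 T9 cells for Tgfbr2 and in 44 of 50 for Smad3. The counts were 17 and 13 of 47 cells in T1, and 23 and 24 of 48 in T7. The T9 counts come from the same cells as the departure and are no separate support for it. In T1 both bins departed the other way, at 0.01 for Tgfbr2 and 0.16 for Smad3, where the SD over bins was 0.16, and in T7 they departed by 0.03 and -0.01. From depth without a reference the departures in T9 were -0.30 for Tgfbr2 and -0.46 for Smad3, but the same bins were then low in T7 as well, at -0.18 and -0.31, and in T1, at -0.04 and -0.23, where the direction turned. The raw depth of these bins was thus low outside T9 too, and its part in the result was not tested. Segments shorter than 10 Mb were not fitted, so a separate level of either bin could not be called.

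**Figure D3:**
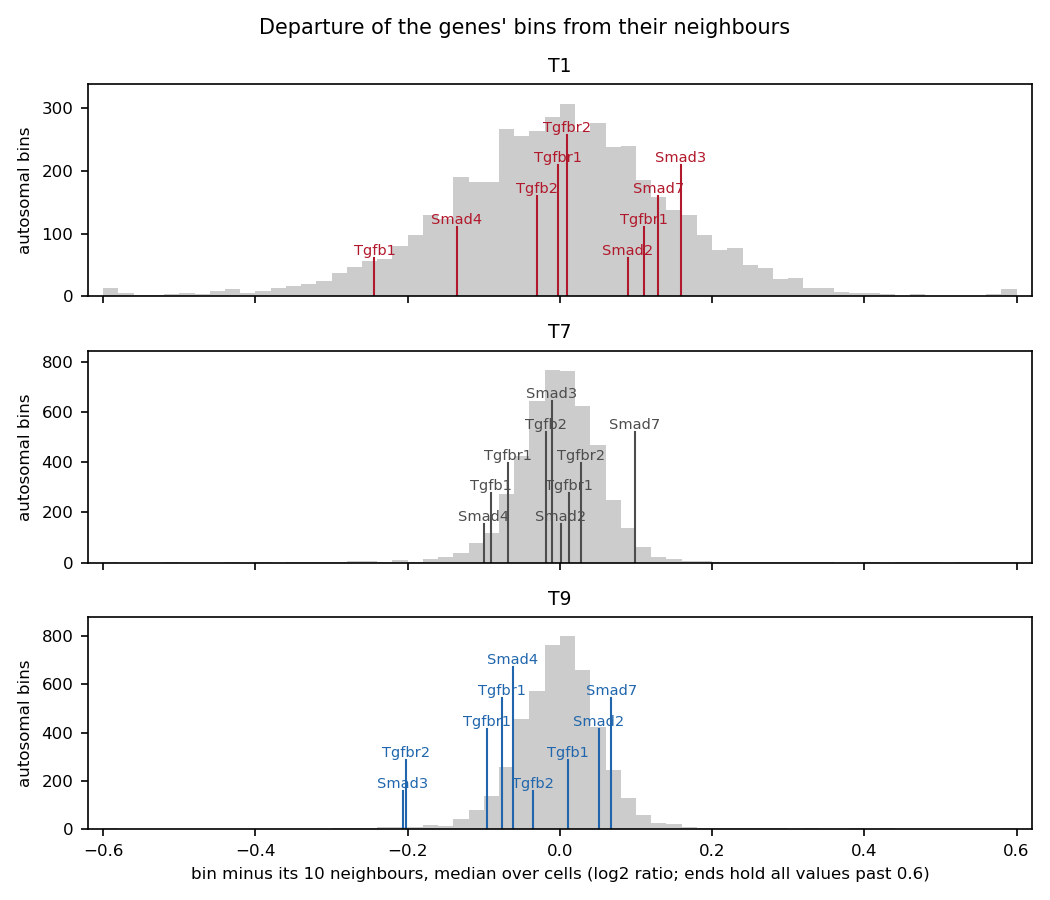
Number of autosomal bins by their departure from their 10 neighbours (log2 ratio, median over cells; grey) in T1, T7 and T9, with the bins of the 8 genes marked; Tgfbr1 has a pair of bins. In T9 the Smad3 and Tgfbr2 bins lie about 0.2 below their neighbours, apart from the bulk, and in T1 the farthest member is Tgfb1 at -0.24, where the SD over bins was 0.16.

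The SMAD genes of chromosome 18 moved the other way in T1. Smad2, whose product is the second receptor-activated SMAD, had medians of 0.34 (T1, SD 0.22, -0.21 to 0.92), -0.02 (T7, SD 0.18, -0.59 to 0.34) and 0.03 (T9, SD 0.28, -0.74 to 0.79). It was gained in 27 of 47 T1 cells (57.4%, 42.2 to 71.7), 1 of 48 T7 cells and 6 of 50 T9 cells. It was lost in no T1 cell, 1 T7 cell and 4 T9 cells. Smad4, the partner that all receptor-activated SMADs share, had medians of 0.19 (T1, SD 0.23, -0.90 to 0.62), -0.04 (T7, SD 0.16, -0.52 to 0.27) and -0.04 (T9, SD 0.25, -0.50 to 0.57). Its gain was called in 9 of 47 T1 cells (19.1%, 9.15 to 33.3), just under the 20% line, in no T7 cell and in 3 T9 cells, and its loss in 1 T1 cell, 3 T7 cells and 5 T9 cells. Smad7, the inhibitory SMAD, lay at 0.32 (T1, SD 0.27, -0.67 to 0.79), 0.07 (T7, SD 0.18, -0.38 to 0.41) and 0.05 (T9, SD 0.24, -0.38 to 0.69). It was gained in 23 of 47 T1 cells (48.9%, 34.1 to 63.9), 2 T7 cells and 7 T9 cells, and lost in 1 T1 cell and in none of T7 or T9. Most T1 cells were above 0 at each of the 3 genes, and the ranges of the tumours overlapped throughout.

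The 3 genes lie within 2.68 Mb, and their T1 levels differed by bin more than by segment. The Smad4 bin lay 0.14 below its neighbours in T1, the Smad7 bin 0.13 above and the Smad2 bin 0.09 above, all within the SD of 0.16 over bins. The segment median of all 3 was 0.22 in T1, under the threshold for gain, with 8, 7 and 8 cells of 47 called gained for Smad2, Smad4 and Smad7. In 35 of 47 T1 cells that segment was the whole of chromosome 18. By the median of 11 bins centred on the gene, the genes gained in at least 20% of T1 cells were Smad2 (12 of 47) and Smad4 (23 of 47) in place of Smad2 and Smad7. The share of all autosomal bins gained by that reading is not given here. The T1 median level of chromosome 18 was thus above typical by 0.22 (SD 0.15), between the typical level and the threshold, and which of its SMAD genes was called rested on the bins read. In T9 all 3 were gained together in 4 of 50 cells by segment (8%, 2.22 to 19.2), at a segment median over all cells of 0.01.

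**Figure D4:**
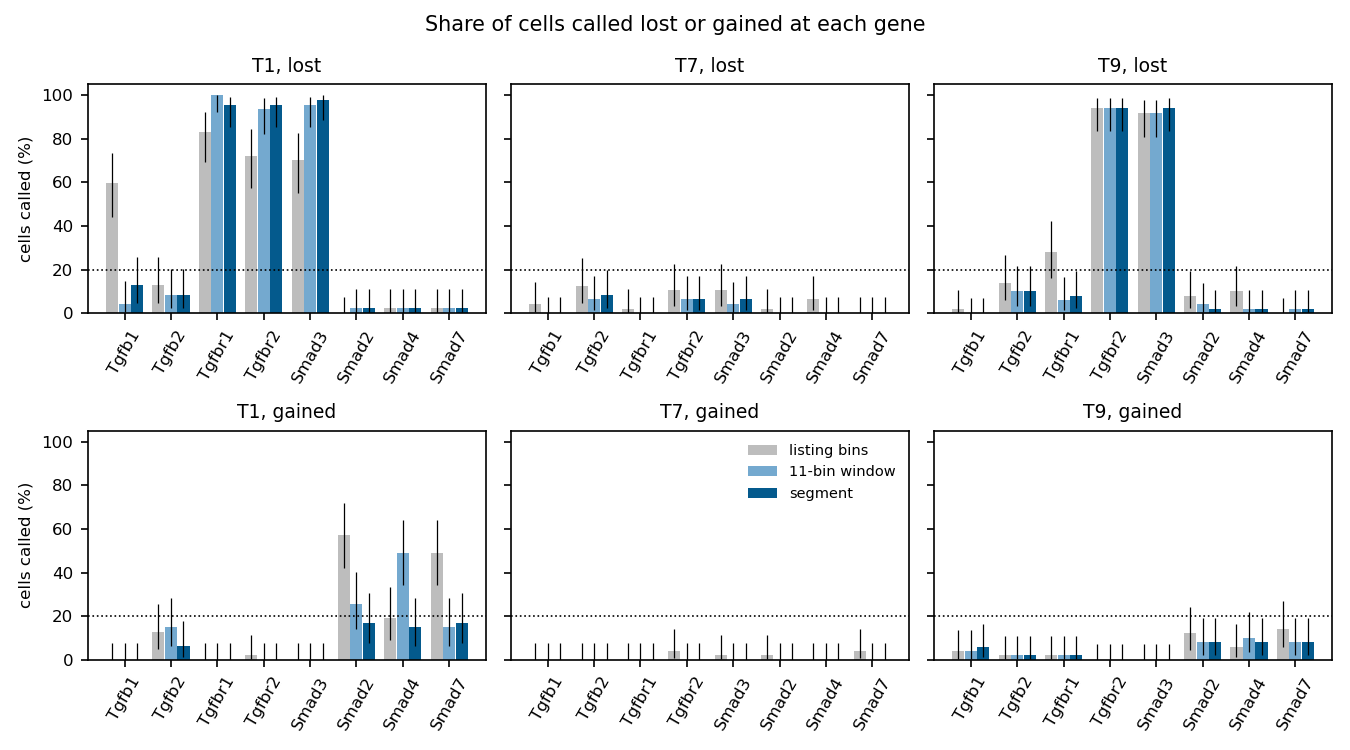
Percent of cells called lost (top) or gained (bottom) at each gene in T1, T7 and T9, by the listing bins, the median of 11 bins and the segment; lines are exact 95% intervals and the dotted line is 20%. For Tgfbr2 and Smad3 in T9 the 3 readings give 92 to 94%, while Tgfb1 in T1 falls from 59.6% by the bin to 12.8% by the segment.

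Most T1 cells carried the losses of both receptors. By segment, Tgfbr1 and Tgfbr2 were lost together in 44 of the 47 T1 cells (93.6%, 82.5 to 98.7), in none of the 48 T7 cells (limit 6.25%) and in 4 of the 50 T9 cells (8%, 2.22 to 19.2). By the bins alone the counts were 30 of 47, 0 of 48 and 14 of 50. All 44 T1 cells with both receptors lost had also lost Smad3. By segment each receptor was lost in 45 of the 47 T1 cells and Smad3 in 46. Joint counts near these follow from the single shares and do not show that the losses went together. Tgfbr2 and Smad3 were lost together in 45 of 47 T1 cells, 3 of 48 T7 cells (6.25%, 1.31 to 17.2) and 47 of 50 T9 cells. Over the 8 genes, 27 of 47 T1 cells (57.4%) had lost Tgfbr1, Tgfbr2 and Smad3 and had no other call, and 5 more had those losses with gain of Smad2, Smad4 and Smad7. In T7, 42 of 48 cells (87.5%) had no call at any of the genes. In T9, 31 of 50 cells (62%) had lost Tgfbr2 and Smad3 alone, and 5 had lost Tgfb2 as well. T1 held 13 distinct combinations, T7 held 4 and T9 held 9.

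**Figure D5:**
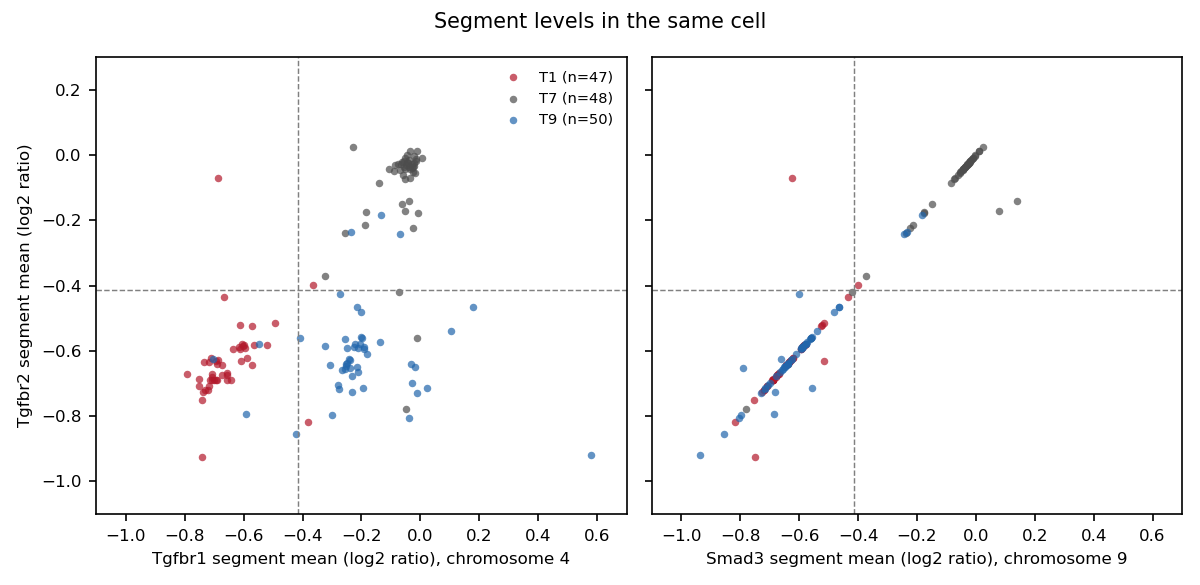
Segment level (log2 ratio) of Tgfbr2 against that of Tgfbr1 (left) and of Smad3 (right), 1 point per cell, with dashed lines at the threshold for loss. T1 cells lie in the corner where both receptors are lost (44 of 47). Most T9 cells are past the threshold for Tgfbr2 but not for Tgfbr1, whose T9 segment median was -0.22. Smad3 and Tgfbr2, which share a segment in most cells, lie on one line.

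Single cells went against their tumour. The 3 T9 cells without loss at Tgfbr2 and Smad3 had segment levels of -0.18, -0.23 and -0.24, below 0 but above the threshold. One T1 cell kept Tgfbr2 (segment level -0.07, bin level 0.42) while it had lost Smad3 and Tgfbr1, and so held an edge between the 2 genes. Another T1 cell had no segment call at any of the 8 genes, with segment levels of -0.36 for Tgfbr1 and -0.40 for Tgfbr2 and Smad3, just above the threshold. Its bins were all past the threshold, at -0.64 for Tgfbr1, -0.65 for Tgfbr2 and -0.59 for Smad3. One T1 cell had lost Smad2, Smad4 and Smad7 at a segment level of -0.62, against a segment median of 0.22 over T1. In T7 the 3 cells that had lost Tgfbr2 and Smad3 lay at -0.78, -0.56 and -0.42, and 1 of them had lost Tgfb2 too.

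A list of 72 other genes of TGF-beta and related signalling (ligands, latency and activation, antagonists, receptors, SMADs, regulators, kinases and targets) was read in the same way, and 70 lay in a kept bin. By segment, 16 of the 70 (22.9%) were lost in at least 20% of T1 cells, against 20.1% of all autosomal bins, and 1 (1.43%) was gained, against 8.22%. In T7, 3 were lost (4.29% against 2.52%) and 13 gained (18.6% against 13.6%). In T9, 4 were lost (5.71% against 4.2%) and 2 gained (2.86% against 7.07%). By their own bins, 21 were lost (30.0%, against 23.9% of bins) and 23 gained (32.9% against 30.8%) in T1. In T7 the bins gave 2 lost (2.86% against 2.37%) and 16 gained (22.9% against 13.9%), and in T9 they gave 6 lost (8.57% against 7.76%) and 2 gained (2.86% against 7.57%). The shares lost were near the background of all bins in each tumour. Past 20% by the bins but not by the segment were, in T1, losses of Gdf15, Ltbp3, Lefty1, Smurf2, Crebbp, Ep300, Tab1, Snai2 and Col1a1. The gains of that kind in T1 included Tgfb3, Bmp2, Bmp4, Bmp6, Bmp7, Itgb8, Fbn1, Fst, Tgfbr3, Acvr2a, Bmpr1b, Smad1, Smad5, Smad9, Skil, Tgif1, Nedd4l, Mapk8, Id2, Snai1 and Pmepa1. Bmp6, Fst and Smad5 were thus past 20% as gains by the bins and as losses by the segment. In T7 these were gains of Bmp7, Ep300 and Pmepa1, and in T9 losses of Map3k7 and Cdkn2b.

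By segment, calls on that list were often shared along a chromosome, though not always by every listed gene on it. On chromosome 11 in T9, Smurf2 was lost in 42 of 50 cells and Col1a1 in 0. On chromosome 17 in T9, Tgif1 was gained in 23 of 50 cells, and Mapk14 and Cdkn1a in 0. On chromosome 2 in T7, Snai1 was gained in 35 of 48 cells, and Bmp7 and Pmepa1 in 1 each. Of the 16 called lost in T1 by segment, 5 lie on chromosome 4 with Tgfbr1 and 3 on chromosome 9 with Tgfbr2 and Smad3. Another 5 lie on chromosome 10 (Gdf11, Nodal, Dcn, Usp15 and Ccn2) and 3 on chromosome 13 (Bmp6, Fst and Smad5). Only a minority of T1 cells had lost these: 12 or 13 of 47 on chromosome 10 and 10 or 11 on chromosome 13. The genes on chromosomes 4 and 9 were lost in 42 to 46 of 47 cells. The T1 segment medians on chromosomes 10 and 13, from -0.19 to 0.12, lay above the threshold for loss. Gdf11, Dcn and Usp15 were also the 3 lost in T7, each in 11 of 48 cells by segment. The gene gained in T1 was Col1a2, on chromosome 6, in 14 of 47 cells by segment. The chromosome 9 genes were Bmp5, a BMP ligand, Acvr2b, a type II receptor for activins, and Smad6, the inhibitory SMAD of the BMP branch. Smad6 was at -0.79 in T1 (SD 0.27, lost in 43 of 47 cells by its bins) and -0.50 in T9 (SD 0.24, 32 of 50), and Acvr2b at -0.54 (SD 0.23, 32 of 47) and -0.67 (SD 0.19, 44 of 50). The same 3 genes were lost in T9 by segment, each in 47 of 50 cells. On chromosome 4 of T1 were Map3k7, whose kinase TAK1 carries the signal outside the SMADs, at -0.76 (SD 0.31, lost in 44 of 47 cells), and Cdkn2b, whose product p15 arrests the cell cycle downstream of TGF-beta, at -0.70 (SD 0.18, 45 of 47). Ski, a corepressor of SMADs, Zfyve9, which presents SMADs to the receptor, and the target Id3 were the others there, lost by segment in 42, 45 and 44 of 47 cells. The ubiquitin ligase gene Smurf2, which acts against receptors and SMADs, was lost in 42 of 50 T9 cells by segment, at -0.57 by segment and -0.39 by its bin, on chromosome 11.

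The gains of T7 on that list were outside the 8 genes and lay mainly on chromosome 2, with 12 of the 13, and Col1a2 on chromosome 6 was the other. Those on chromosome 2 were the ligand gene Bmp2, the activation genes Itgav, Itgb6, Thbs1 and Fbn1, the antagonist Grem1, the receptor genes Eng, Acvr1, Acvr1c and Acvr2a, and the targets Id1 and Snai1. Thbs1, whose product releases latent TGF-beta, was at 0.45 in T7 (SD 0.27, gained in 32 of 48 cells by its bin and 35 by segment). In T1 it was at 0.18 and in T9 at -0.05. Of the receptors, Eng, a co-receptor, was at 0.30 in T7 (SD 0.18, gained in 22 of 48 cells by its bin and 35 by segment). In T9 the gained genes were Ltbp1, which binds latent ligand to the matrix, and Tgif1, a corepressor of SMADs, both on chromosome 17 and each gained in 23 of 50 cells by segment.

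By the highest correlation of levels over the 145 cells with a listed gene on another chromosome, Tgfbr2 and Smad3 were most like Thbs1 (Pearson r = 0.59 and 0.53), and Tgfb1 was most like Ep300 (0.62). Smad2, Smad4 and Smad7 were most like Bmpr1b (0.57, 0.37 and 0.46), Tgfbr1 was most like Smad6 (0.43) and Tgfb2 was most like Acvrl1 (0.24). The cells of a tumour share its copy number changes. Within T1, T7 and T9 the correlation of Tgfbr1 with Smad6 was -0.15, -0.38 and -0.15, and that of Smad3 with Thbs1 -0.08, 0.32 and 0.08. Smad4 with Bmpr1b gave -0.10, -0.02 and 0.36. The correlation was above 0 within each tumour for the other 5 pairs: Tgfb1 with Ep300 (0.23, 0.42 and 0.35), Smad2 with Bmpr1b (0.28, 0.21 and 0.44), Smad7 with Bmpr1b (0.10, 0.12 and 0.36), Tgfbr2 with Thbs1 (0.10, 0.38 and 0.12) and Tgfb2 with Acvrl1 (0.43, 0.16 and 0.11). Each partner was picked as the highest of 65 to 68 listed genes over these same cells, so the values within a tumour are no separate support. These are descriptions over cells, with no test.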

How the data were processed

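Copy number was read from single-cell whole-genome sequencing of 150 cells. The authors deposited a log2 ratio per bin and cell, the coverage (mean reads per base) behind it, and a weight, a score between 0 and 1 that is the same in all cells. BWA 0.7.17 and the build GRCm38 are listed in the submitters' processing notes. The tool and reference behind the log2 ratio were not given in the sources used here. Of 5331 bins, 5149 with coverage in at least 80% of cells were kept (4806 autosomal), and 5 cells with noise above 0.267 (the median plus 3 scaled MADs) were left out. Each cell was centred on its autosomal median, and a gene's level is the mean of the kept bins that list it. Segments were fitted per cell by penalised least squares (penalty 3 times the log of the bin number and the noise variance; at least 5 bins and 10 Mb). The window is the median of 11 bins. Changes of known level were planted on the residuals of the real cells, and only the segment calls of loss were checked against a set limit. Python 3.11.15, numpy 2.4.6 and scipy 1.17.1 were used. Cells were grouped by the tumour label. The genes, the list of 72 and the readings were chosen with earlier results of these data known. Named were all 8 members, any listed gene whose calls reached 20% of a tumour's cells (1 such gene is not reported here by name), and for likeness the listed gene on another chromosome with the highest r. Alternatives were other thresholds, centring on the mode, the window, the segment, a weighted mean of 5 bins, depth without a reference and a stricter cell filter. Promoters came from RefSeq (GRCm38.p6).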

Additional observations from a re-analysis of the deposited data

How the results depend on the processing

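Of the 144 alternative values of a median level, 139 moved by less than the spread of cells. That spread is wide: Tgfb1 in T1 counted as unmoved at -0.189 by the segment, across the threshold for loss from its main level. The exceptions came from depth without a reference: Tgfb1 in T1 turned from -0.45 to 0.0107, and 4 other levels moved. Shares of cells depended on the reading more than levels did.

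Loss of Tgfb1 in T1 went from 59.6% of cells to 10.6% with stricter thresholds (0.45 and -0.7), 76.6% with looser ones (0.2 and -0.25), 4.26% by the window, 12.8% by the segment, 4.26% from depth and 10.6% with the weighted mean of 5 bins. In the same order, loss of Tgfbr1 in T1 (83.0%) went to 19.1%, 95.7%, 100.0%, 95.7%, 53.2% and 100.0%, and loss of Tgfbr1 in T9 (28%) to 6%, 62%, 6%, 8%, 70% and 10%. Loss of Tgfbr2 in T1 (72.3%) went to 23.4%, 95.7%, 93.6%, 95.7%, 40.4% and 93.6%, and to 89.4% with centring on the mode. Loss of Smad3 in T1 (70.2%) went to 25.5%, 89.4%, 95.7% and 97.9% by the first 4 of these and 95.7% with the weighted mean. In T9, stricter thresholds gave 74% for Tgfbr2 and 78% for Smad3, and depth gave 100.0% for Smad3. Gain of Smad2 in T1 (57.4%) went to 19.1%, 76.6%, 25.5%, 17% and 83.0% by the first 5, to 34% with centring on the mode and to 32% with the stricter cell filter, which left 25 T1 cells. Gain of Smad7 in T1 (48.9%) went to 29.8%, 72.3%, 14.9%, 17% and 85.1% by the first 5.

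Counts of the 8 genes past 20% of cells moved as follows. With stricter thresholds 2 were lost and 1 gained in T1. With looser thresholds 4 were gained in T1, 3 lost in T7, and 5 lost and 2 gained in T9. By the segment 0 were gained in T1, and from depth 4 were gained in T1 and 3 lost in T7. By the segment, 8.22% of all autosomal bins were gained in at least 20% of T1 cells. The share of all bins past the other altered rules is not given here, so those counts have no background beside them. The cause of these moves was not tested.

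One mouse and 1 tumour per label limit what these values cover, and no normal cell was analysed here. The raw depth of a single bin was as low as 1.89 kb in a cell (Smad3 in T7), so the level of 1 bin in 1 cell is imprecise. No paired analysis was possible because the cells of different tumours share no replicate label and no test between tumours was run.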
